A study of Mus musculus with 9 samples.

Results

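Regions of bidirectional transcription that lie at the ends of long non-coding RNA (lncRNA) genes, and at no end of a protein-coding gene, were followed over 30 min of induction of the lncRNA Firre in mouse embryonic stem cells. A region was taken when its centre lay within 1 kb of either end of an lncRNA gene of the RefSeq annotation of GRCm38 (mm10) and not within 1 kb of an end of any protein-coding gene. The regions of the Firre locus itself were left out. The deposited list of regions was made for all samples together, so presence in it can depend on their signal. Within that list the rule used positions alone and no count. It took 6593 of the 174289 deposited regions (3.78%), nearest to 3871 lncRNA genes. All cells were Firre knockout cells that carried an inducible Firre transgene. The groups were 0 min, without doxycycline, and 15 min and 30 min of doxycycline at 1 ng/μL, with 3 libraries each. No group that received doxycycline without the transgene was used here, so the drug and the transgene cannot be told apart. The promoter that drives the transgene, its place of integration and the number of clones are not given in the sources used here. The cells were kept in serum with LIF and inhibitors of MEK and GSK3 on gelatin, without feeder cells named.

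PRO-seq labels the RNA that engaged RNA polymerase is making in a nuclear run-on, so its reads report ongoing transcription and not stored RNA. Active promoters and enhancers of mammals are transcribed in both directions, and such paired signals mark both. LncRNA genes share this: many start at a promoter like those of coding genes, and many others start at sites with enhancer features, where the act of transcription can matter more than the RNA. A well-known group is the host genes of small nucleolar RNAs (snoRNAs), whose introns hold the snoRNAs and whose spliced RNA is often short-lived. Others are architectural nuclear RNAs such as Neat1 and Malat1, transcripts of imprinted domains, and transcripts found in pluripotent cells (the Platr genes, Lncenc1 and Tunar).

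Reads in all regions came to 3813365 to 5980366 per library, of which 4.3% to 4.50% fell in regions at lncRNA gene ends. Levels are in CPM, counts scaled by a library's reads in all regions with TMM factors, and 3 reads come to 0.50 to 0.787 CPM. The 10 regions of the Firre locus summed to 2.66, 6.04 and 3.15 CPM at 0 min, 319, 384 and 311 CPM at 15 min, and 883, 875 and 883 CPM at 30 min, so the signal of the locus followed the labels in every library. Of 10 stem cell marker genes, 8 had a region at a gene end, at a median of 292 CPM (30.8 to 605). Markers of feeder fibroblasts were at 0.362 to 1.39 CPM (3 of 5 with a region) and those of primitive endoderm at 0.360 to 2.69 CPM (3 of 5). Those of mesoderm were at 1.75 to 2.21 CPM (2 of 5), of trophectoderm at 0.0410 to 5.23 CPM (3 of 5) and of neuroectoderm at 2.85 to 36.2 CPM (4 of 5), the highest being Neurog1. In these bulk samples fewer cells of a type and less RNA per cell cannot be told apart. Nothing in the labels says that the libraries came from separate cultures, and the p-values therefore rest on a spread between libraries that may be technical.

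The base composition of the promoters is shown first because the later results are grouped by it. The 6 were picked among called regions after their values and composition were seen, to show both ends of that range. The 6 promoters below run from 250 bases before to 50 bases after the RefSeq start of the gene, 5′ to 3′, on GRCm38.p6. Capitals mark TATAAA (the TATA box), GGGCGG (the core of the GC box), CCAAT (the CCAAT box) and CACGTG (an E-box) on either strand, overlapping matches included. Platr22 (chr1:136695961-136696260, plus strand), Platr9 (chr4:34911432-34911731, minus strand) and Platr10 (chr3:75655682-75655981, minus strand) belong to regions that were higher at 15 min than at 0 min. Tunar (chr12:105336743-105337042, plus strand), Mirc35hg (chr6:30174076-30174375, minus strand) and 4833438C02Rik (chr19:46305580-46305879, minus strand) belong to regions that were lower. G and C made up 52.0%, 42.7% and 47.0% for Platr22, Platr9 and Platr10, against 69.7%, 70.3% and 71.3% for Tunar, Mirc35hg and 4833438C02Rik. Other called regions lay the other way: the promoter of 2410006H16Rik, called higher, had 65.7%, and that of Lockd, called lower, had 50.7%. Over all called members with a promoter the medians were closer, at 49.2% for those higher and 60.2% for those lower.
Platr22: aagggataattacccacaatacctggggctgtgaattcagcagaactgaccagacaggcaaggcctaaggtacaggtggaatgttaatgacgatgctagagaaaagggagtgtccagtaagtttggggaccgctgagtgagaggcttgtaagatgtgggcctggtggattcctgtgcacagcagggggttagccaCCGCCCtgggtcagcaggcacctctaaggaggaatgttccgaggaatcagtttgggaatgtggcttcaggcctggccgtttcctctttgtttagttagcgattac
Platr9: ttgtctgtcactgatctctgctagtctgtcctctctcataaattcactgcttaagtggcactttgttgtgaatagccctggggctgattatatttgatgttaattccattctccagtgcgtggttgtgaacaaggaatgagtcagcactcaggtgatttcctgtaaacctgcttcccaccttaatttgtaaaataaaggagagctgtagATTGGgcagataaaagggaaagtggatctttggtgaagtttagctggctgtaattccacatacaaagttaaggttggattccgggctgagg
Platr10: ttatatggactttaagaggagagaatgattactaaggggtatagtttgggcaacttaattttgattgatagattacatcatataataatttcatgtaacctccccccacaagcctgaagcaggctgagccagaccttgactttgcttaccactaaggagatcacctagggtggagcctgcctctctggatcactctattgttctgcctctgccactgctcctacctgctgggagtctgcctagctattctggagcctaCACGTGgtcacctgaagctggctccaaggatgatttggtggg
Tunar: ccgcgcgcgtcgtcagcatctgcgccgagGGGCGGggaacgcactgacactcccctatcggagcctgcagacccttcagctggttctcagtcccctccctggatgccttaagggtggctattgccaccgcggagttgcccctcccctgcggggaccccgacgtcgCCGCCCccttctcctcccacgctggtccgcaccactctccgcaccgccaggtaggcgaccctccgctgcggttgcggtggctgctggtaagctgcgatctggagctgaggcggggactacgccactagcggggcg
Mirc35hg: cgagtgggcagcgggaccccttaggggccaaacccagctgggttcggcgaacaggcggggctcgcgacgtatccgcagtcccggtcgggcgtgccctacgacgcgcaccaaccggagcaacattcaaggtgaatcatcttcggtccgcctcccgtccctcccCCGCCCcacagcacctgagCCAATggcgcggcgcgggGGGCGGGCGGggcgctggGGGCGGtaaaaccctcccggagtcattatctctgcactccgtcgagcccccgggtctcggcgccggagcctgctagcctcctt
4833438C02Rik: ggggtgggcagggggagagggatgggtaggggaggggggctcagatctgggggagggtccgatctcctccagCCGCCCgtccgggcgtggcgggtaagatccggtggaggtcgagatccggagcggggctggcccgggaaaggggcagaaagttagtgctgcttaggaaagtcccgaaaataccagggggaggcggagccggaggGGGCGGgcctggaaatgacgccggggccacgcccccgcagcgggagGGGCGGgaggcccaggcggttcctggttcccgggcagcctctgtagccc

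The second set is the start sites of 5 of the genes with much signal that host or lie beside snoRNA genes. Of these, 4 were chosen because they carry the run described next. Snhg3 was chosen because it has more signal than 3 of these and no such run within 20 bases of its RefSeq start. The starts of snoRNA host genes are known for a run of pyrimidines, so 81 bases around the RefSeq start are shown, with capitals for a C followed by at least 5 bases that are C or T, within 20 bases of the start. They are 2410006H16Rik (chr11:62602837-62602917, plus strand), Snhg12 (chr4:132308638-132308718, plus strand), Snhg8 (chr3:123508296-123508376, minus strand), Snhg7 (chr2:26640204-26640284, minus strand) and Snhg3 (chr4:132353646-132353726, minus strand). Such a run was found in 5 of the 11 listed snoRNA host genes with a RefSeq promoter in the window (45.5%), against 29.9% of all 32851 promoters in the RefSeq table. TATAAA was in 5 of these 11 (45.5%), against 13.6% of all promoters. The TATAAA counts take in both strands and bases after the RefSeq start, where Snhg3 and Snhg9 have a match. Whether transcription of Snhg3 starts further downstream than the RefSeq start was not tested. The absence of the run in Snhg3 therefore holds for the RefSeq start only. With 11 promoters these shares are a description.
2410006H16Rik: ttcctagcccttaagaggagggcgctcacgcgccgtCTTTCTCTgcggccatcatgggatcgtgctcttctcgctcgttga
Snhg12: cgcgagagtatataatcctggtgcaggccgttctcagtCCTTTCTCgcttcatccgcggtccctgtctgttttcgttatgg
Snhg8: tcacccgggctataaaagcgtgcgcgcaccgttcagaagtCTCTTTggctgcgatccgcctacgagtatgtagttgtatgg
Snhg7: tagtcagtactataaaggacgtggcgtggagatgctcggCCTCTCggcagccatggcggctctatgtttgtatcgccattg
Snhg3: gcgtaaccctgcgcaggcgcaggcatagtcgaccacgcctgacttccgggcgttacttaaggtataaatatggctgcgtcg

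The regions differed widely in level. Their mean over the 9 libraries had a median of 0.746 CPM, 2858 reached 1 CPM, 819 reached 10 CPM and 72 reached 100 CPM. The 10 highest held 10.4% of the summed signal. No read was counted in 35 regions. The filter on low counts kept 2296 (34.8%, against 31.2% of all regions), with a median of 5.74 CPM, and the other 4297 had a median of 1.78 reads per library. The nearest lncRNA end was a gene start for 2976 regions, the far end for 2018, and of unknown strand in the sources used here for 1599. The median distance to it was 423 bp. A single region stood at 2036 of the genes and 2 or more at 1835, up to 9, and 2000 regions overlapped another counting window of 600 bp, so neighbouring members can share reads. The nearest protein-coding end lay at a median of 21.3 kb, and 1810 regions (27.5%) lay inside a protein-coding gene. A further gene kind, such as a snoRNA or spliceosomal RNA gene, ended within 1 kb of 186. On chromosome 17 the list held 1128 regions, 65 of them members, and other positions of that chromosome were not analysed here.

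The highest region was at the start of Snhg9, a snoRNA host gene (chr17:24719773-24720372), with 779, 831 and 962 CPM at 0 min, 889.7, 924 and 1004 CPM at 15 min, and 871, 927 and 1076 CPM at 30 min. The libraries of the 3 times overlapped, and neither time passed the test against 0 min (log2 change 0.13 ± 0.09, adjusted p = 0.413 at 15 min and 0.16 ± 0.09, adjusted p = 0.424 at 30 min, SE here and below). This window is inside Rps2 and within 1 kb of Snora64 and Snora78, and reads in it were not assigned to a gene. Next came 2410006H16Rik (chr11:62602462-62603061), beside Snord49a and Snord49b, with 599, 706 and 574 CPM at 0 min, 873, 771 and 695 CPM at 15 min, and 701, 702 and 761 CPM at 30 min. Its log2 change at 15 min was 0.32 ± 0.09 (adjusted p = 0.0368), with 1 of the 3 libraries of 15 min within the range of 0 min. The call was lost without 0 min library 1 or 3, 15 min library 1 or 2 or 30 min library 1 or 2 (adjusted p = 0.0566 to 0.217), and also with DESeq2 size factors, with library size alone, with no filter, in a fit of only these 2 groups or with DESeq2's Wald test. Snhg3, the host of Snora73a (chr4:132353407-132354006), had 441, 486 and 452 CPM at 0 min, 627, 551 and 557 CPM at 15 min, and 424, 509 and 549 CPM at 30 min. All 3 libraries of 15 min lay above all 3 of 0 min (log2 change 0.33 ± 0.10, adjusted p = 0.031), and the call was lost without 0 min library 1 or 3, 15 min library 1 or 2 or 30 min library 2 (adjusted p = 0.0557 to 0.156), and also with no filter or with DESeq2's Wald test. The far end of Platr30 (chr3:96358773-96359372) lay within 1 kb of Rnu1b1, a gene of the U1 spliceosomal RNA, and had 315, 493 and 519.7 CPM at 0 min, 463, 555 and 522 CPM at 15 min, and 483, 476 and 455 CPM at 30 min, with overlapping times. Neat1, the RNA that paraspeckles are built on, followed with 391, 396 and 397 CPM at 0 min, 437, 458 and 517 CPM at 15 min, and 498, 488 and 508 CPM at 30 min (chr19:5845825-5846424). Every library of 15 and of 30 min lay above every library of 0 min, and the test passed at 30 min (0.33 ± 0.09, adjusted p = 0.0456) and not at 15 min (0.25 ± 0.09, adjusted p = 0.0722). The Neat1 call was lost without 0 min library 1, 2 or 3 or 30 min library 1, 2 or 3 (adjusted p = 0.0748 to 0.168), and also with DESeq2 size factors or with no filter. The end of its neighbour Frmd8 gave -0.61 ± 0.16 (adjusted p = 0.0161) at 15 min, on the other side of 0. Here and below, a neighbouring coding gene is measured at its end region of highest mean count. Distances are to its nearer end, which need not be the end measured. Dancr, the host of Snora26, 1110038B12Rik, Snhg12, Gm35607 and Snhg8 completed the 10 highest, with means of 355, 309, 277, 268 and 266 CPM. Their log2 changes at 15 min were 0.16 ± 0.10, 0.33 ± 0.13, 0.20 ± 0.10, -0.09 ± 0.09 and 0.20 ± 0.11, and none of these 5 passed the test at either time. The end region of Usp46, whose nearer end lay 24.6 kb from Dancr, was lower at 15 min (-0.88 ± 0.20, adjusted p = 0.00611).

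After 15 min of doxycycline the regions at Gm39485, Gm38528 and Platr22 stood above 0 min in every library, and those at 4833438C02Rik, Mirc35hg and Dleu2 stood below it. At 15 min against 0 min, 103 of the 2296 tested regions were higher and 116 lower at an adjusted p under 0.05 (edgeR's quasi-likelihood test, Benjamini-Hochberg over all 54299 tested regions). That is 9.54% of those tested, against 8.25% of all tested regions, and 4.49% higher and 5.05% lower against 4.29% and 3.96%. The share called was thus near that of the whole list. The 103 higher regions had a median log2 change of 0.78 (0.32 to 2.47), with 37 over 2-fold. The 116 lower ones had a median of -0.92 (-2.52 to -0.34), with 48 over 2-fold. The median log2 change of all tested members was -0.07, against 0.02 for all tested regions. The other kinds of position stood on both sides of it: regions at coding ends alone gave 155 higher and 952 lower of 11198 (median -0.18), those at both an lncRNA and a coding end 12 and 134 of 1420 (-0.22), and those at no gene end 2016 and 917 of 37952 (0.12). The differences between these kinds were not tested. With scaling factors set on coding ends, the median of all regions was 0.19 and that of the members 0.09, so that it lay below that of all regions under either scaling, while its sign turned. The calls among members were then 164 higher and 54 lower, and those among all tested regions 4154 and 937, so that 75.2% of the members' calls were higher, below the 81.6% of all regions' calls. Coding ends alone then gave 397 higher and 425 lower (median -0.01). Factors set on these same regions bring their median near 0 by construction, so this is no test of their excess of lower calls. Calls were more frequent at higher levels: with the tested members cut by level into 4 bands of 574, 6 were higher and 5 lower in the lowest band, 16 and 18 in the second, 23 and 47 in the third, and 58 and 46 in the highest. Single libraries moved these counts. Leaving out 0 min library 1 gave 44 higher and 54 lower, leaving out 15 min library 1 gave 53 and 51, leaving out 15 min library 2 gave 53 and 58, and leaving out 0 min library 3 gave 62 and 84. All tested regions moved too, from 2331 higher and 2148 lower to 1075 and 1075 without 0 min library 1, and to 1289 and 896 without 15 min library 1. DESeq2's Wald test called 56 higher and 101 lower of the 1794 members it kept, and 1305 and 1877 of the 42214 regions of all kinds.

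**Figure D1:**
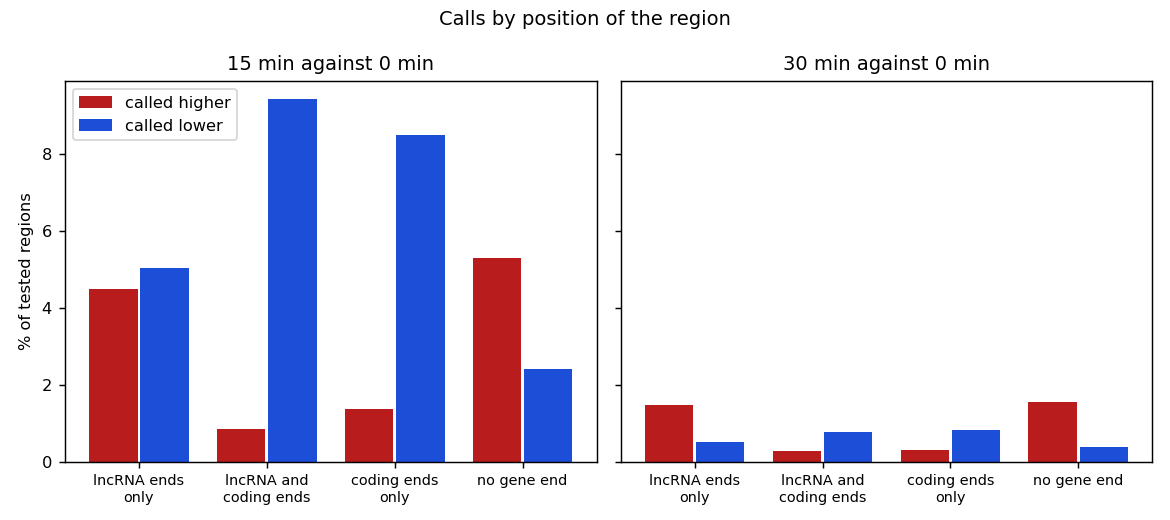
Share of tested regions called higher (red) and lower (blue) at 15 min (left) and 30 min (right) against 0 min, by position: lncRNA gene ends only, both lncRNA and coding ends, coding ends only, and no gene end. At 15 min the bars of lncRNA gene ends stand at 4.49% and 5.05%, between those of coding ends (1.38% and 8.50%) and of no gene end (5.31% and 2.42%). Under factors from coding ends, not drawn, the calls at coding ends were 397 higher and 425 lower of 11198 and those at lncRNA gene ends 164 and 54 of 2296. All tested regions gave 4154 and 937 of 54299 under them. Those factors bring the median of coding ends near 0 by construction.

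**Figure D2:**
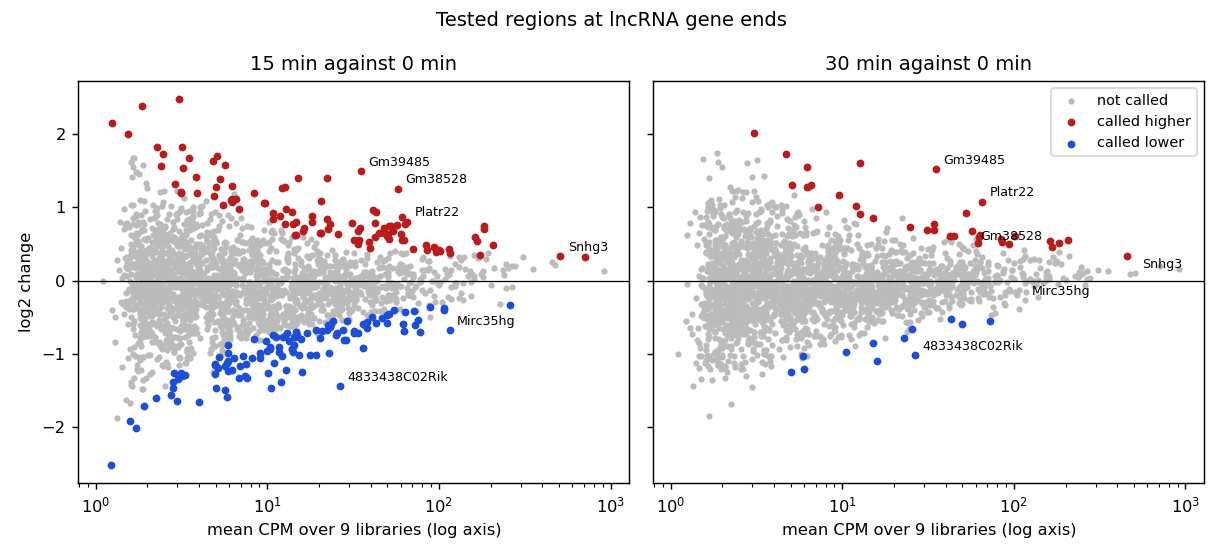
Log2 change (vertical) against mean CPM over the 9 libraries (horizontal, log axis) for the 2296 tested regions at lncRNA gene ends, at 15 min (left) and 30 min (right) against 0 min, with regions called higher in red, lower in blue and the rest in grey. The called regions are 103 and 116 at 15 min and 34 and 12 at 30 min, and the larger changes belong to regions of lower level.

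Called regions were open to naming with at least 20 counts on average and groups that did not overlap. The share of all called regions that would meet this rule is not given here. Among the higher members that met it (83 of the 103), the 8 largest changes at 15 min belonged to Gm40300, 1700001K23Rik, Gm36184, Gm39485, Gm40260, Gm41662, 4930556M19Rik and Gm16041, gene models with no role known with certainty. Gm39485 had the highest level of these (chr11:119907177-119907776, 5.93 kb from an end of Chmp6), with 12.2, 13.2 and 22.8 CPM at 0 min, 43.0, 49.0 and 41.3 CPM at 15 min, and 47.9, 37.8 and 50.5 CPM at 30 min. The lowest library after doxycycline stood well above the highest at 0 min. The log2 change was 1.49 ± 0.19 (adjusted p = 1.44e-05) at 15 min and 1.52 ± 0.19 (adjusted p = 5.07e-05) at 30 min, 2 comparisons that share the 0 min libraries, and both calls held without any 1 library. The end of Chmp6, an ESCRT-III subunit, gave 0.06 ± 0.16 (adjusted p = 0.864) at 15 min. Gm40300 (chr5:50121861-50122460) had 1.77, 1.79 and 3.41 CPM at 0 min, 7.17, 7.05 and 8.02 CPM at 15 min, and 6.01, 5.96 and 4.74 CPM at 30 min, with log2 changes of 1.70 ± 0.32 (adjusted p = 0.00138) at 15 min and 1.31 ± 0.33 (adjusted p = 0.0384) at 30 min. Its 30 min call was lost without 0 min library 1 or 2, 15 min library 1 or 30 min library 1, 2 or 3 (adjusted p = 0.0501 to 0.228), and also with no filter or with DESeq2's Wald test. 1700001K23Rik (chr19:53255903-53256502) had 2.48, 2.46 and 2.62 CPM at 0 min, 8.83, 5.91 and 8.74 CPM at 15 min, and 3.64, 5.03 and 3.79 CPM at 30 min. It was highest at 15 min (1.63 ± 0.31, adjusted p = 0.00159), and the test did not pass at 30 min (0.72 ± 0.34, adjusted p = 0.302). For Gm36184, Gm41662 and 4930556M19Rik the log2 changes at 15 min were 1.58 ± 0.33, 1.39 ± 0.22 and 1.39 ± 0.31 (adjusted p = 0.00324, 0.000276 and 0.00547), and the calls held without any 1 library. Gm16041, inside Rgs20, gave 1.28 ± 0.35 (adjusted p = 0.0212), and its call was lost without 0 min library 1 or 15 min library 1 or 2 (adjusted p = 0.0929 to 0.151), and also with DESeq2's Wald test.

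Of the 116 lower regions, 97 met the same naming rule. The largest changes were at 4732414G09Rik, Gm33258, Gm31342, Gm52814, 4833438C02Rik, Gm10822, Gm16938 and Gm41589. The highest level was that of 4833438C02Rik (chr19:46305382-46305981), whose start lies in Nfkb2, the gene of an NF-kB subunit made as a precursor, 4.69 kb from its nearer end. It had 51.4, 40.5 and 35.4 CPM at 0 min, 14.0, 12.2 and 21.6 CPM at 15 min, and 20.0, 21.2 and 21.8 CPM at 30 min. The log2 change was -1.44 ± 0.19 (adjusted p = 2.58e-05) at 15 min and -1.02 ± 0.19 (adjusted p = 0.00488) at 30 min. The 15 min call held without any 1 library, and the 30 min call was lost without 0 min library 1 (adjusted p = 0.0566). The end region of Nfkb2 gave -0.68 ± 0.44 (adjusted p = 0.374) at 15 min. Gm52814, inside Jakmip1 (chr5:37029367-37029966), had 15.8, 19.7 and 15.5 CPM at 0 min, 5.67, 6.67 and 6.07 CPM at 15 min, and 7.47, 11.4 and 6.87 CPM at 30 min. All libraries of 15 and 30 min lay below those of 0 min (log2 change -1.47 ± 0.24, adjusted p = 0.000274 and -0.97 ± 0.23, adjusted p = 0.0233), the 30 min call being lost without 0 min library 1 or 2 or 30 min library 1 or 3 (adjusted p = 0.0704 to 0.137). This window is at the start of Gm52814, and the region at its far end, of 3.54 CPM, gave 0.38 at 15 min and was not called. Gm41589 (chr17:47139529-47140128) starts 1.11 kb from an end of Trerf1, a transcriptional regulator. It had 4.17, 7.63 and 6.80 CPM at 15 min, against 19.1, 13 and 11.5 CPM at 0 min, a log2 change of -1.26 ± 0.25 (adjusted p = 0.00246), and the end of Trerf1 was lower as well, with a log2 change of -1.19 ± 0.27 (adjusted p = 0.00664). Gm16938, 1.05 kb from an end of Capn5, gave -1.30 ± 0.28 (adjusted p = 0.00473), while the end of Capn5, the gene of a calpain protease, gave 0.52 ± 0.18 (adjusted p = 0.0705). The remaining 4 had log2 changes of -1.59 ± 0.31 (4732414G09Rik, inside Camkk1), -1.49 ± 0.29 (Gm33258), -1.47 ± 0.30 (Gm31342) and -1.38 ± 0.26 (Gm10822, 5.54 kb from Atf2). The 15 min calls of all 8 held without any 1 library.

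After 30 min Gm39485, Platr22 and Gm52864 stood above 0 min in every library and 4833438C02Rik and Gm52551 below it. At 30 min against 0 min, 34 members were higher and 12 lower, 2.00% of those tested against 1.74% of all tested regions (1.48% higher against 1.24%, and 0.523% lower against 0.497%). The share was again near that of the whole list. Their median log2 change was -0.04, against -0.00 for all regions. With factors from coding ends, 52 were higher and 5 lower (91.2% of the calls higher), against 1139 and 119 of all regions (90.5%), at medians of 0.08 and 0.12. The higher calls had a median of 0.71 and the lower ones of -0.91. The counts moved with single libraries: leaving out 0 min library 1 gave 3 higher and 1 lower, 0 min library 3 gave 21 and 6, 30 min library 1 gave 11 and 3, 30 min library 2 gave 13 and 5, 30 min library 3 gave 6 and 2, and 15 min library 3 gave 46 and 27. All tested regions moved too, from 675 higher and 270 lower to 117 and 54 without 0 min library 1, and to 210 and 35 without 30 min library 3. The largest named increase was at Gm10858 (chr5:146896528-146897127), with 1.42, 3.36 and 2.10 CPM at 0 min, 5.83, 2.86 and 3.89 CPM at 15 min, and 6.74, 7.64 and 8.30 CPM at 30 min. The 30 min libraries lay above all others, 15 min overlapped 0 min, and the log2 change at 30 min was 1.73 ± 0.35 (adjusted p = 0.00932). It was lost without 0 min library 1 or 30 min library 3 (adjusted p = 0.0526 to 0.102). Gm52864 (chr6:85115061-85115660) had 6.38, 6.27 and 7.34 CPM at 0 min, 11.7, 12.4 and 9.96 CPM at 15 min, and 18.9, 20.9 and 20.9 CPM at 30 min, 3 groups with no overlap. Its log2 change was 0.78 ± 0.22 (adjusted p = 0.0257) at 15 min, 1.60 ± 0.21 (adjusted p = 7.7e-05) at 30 min and 0.83 ± 0.19 (adjusted p = 0.0354) between 30 and 15 min. The 30 min call held without any 1 library, and the 15 min call was lost without 0 min library 1, 2 or 3 or 15 min library 1 or 2 (adjusted p = 0.0520 to 0.121), and also with no filter, in a fit of only these 2 groups or with DESeq2's Wald test. That between the later times was lost without 15 min library 1, 2 or 3 or 30 min library 1, 2 or 3 (adjusted p = 0.0809 to 0.180), and also with factors from coding ends. AW549542, 90.9 kb from the developmental regulator Tbx3, had 3.90, 6.94 and 5.51 CPM at 0 min, 12.0, 9.91 and 11.7 CPM at 15 min, and 11.3, 11.4 and 14.0 CPM at 30 min and gave 1.18 ± 0.25 (adjusted p = 0.013) at 30 min, lost without 0 min library 1 or 30 min library 3 (adjusted p = 0.0829 to 0.141). Gm30193 gave 1.31 ± 0.30 (adjusted p = 0.0199), lost without 0 min library 1 or 30 min library 1, 2 or 3 (adjusted p = 0.0696 to 0.184). 4930543E12Rik gave 1.28 ± 0.33 (adjusted p = 0.0391), lost without 0 min library 1 or 3 or 30 min library 1, 2 or 3 (adjusted p = 0.0730 to 0.215), and also with DESeq2's Wald test. Gm16041 gave 1.55 ± 0.34 (adjusted p = 0.0169), lost without 0 min library 1 or 30 min library 1 or 3 (adjusted p = 0.0760 to 0.162).

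Of the lower calls at 30 min, Gm52551, inside St6galnac6 (chr2:32607277-32607876), had 30.1, 23.1 and 22 CPM at 0 min, 9.67, 10.1 and 12.4 CPM at 15 min, and 10.4, 11.9 and 13.3 CPM at 30 min. Every library after doxycycline was below every library of 0 min (log2 change -1.24 ± 0.20, adjusted p = 0.000243 at 15 min and -1.09 ± 0.20, adjusted p = 0.00424 at 30 min), and the 30 min call was lost without 0 min library 1 (adjusted p = 0.0533). C230037L18Rik (chr15:89483747-89484346) differed from the others in that 15 min overlapped 0 min: it had 19.8, 17.9 and 17 CPM at 0 min, 15.3, 18.9 and 17 CPM at 15 min, and 11.7, 7.83 and 11.1 CPM at 30 min, with -0.10 ± 0.19 (adjusted p = 0.794) at 15 min and -0.85 ± 0.20 (adjusted p = 0.0282) at 30 min, lost without 0 min library 1 or 3 or 30 min library 1, 2 or 3 (adjusted p = 0.0574 to 0.160), and also with factors from coding ends. The window given for C230037L18Rik is at its far end. At its start a region of 27.4 CPM gave -0.54 at 15 min and was not called. Gm30110, inside Jade2, had a log2 change at 30 min of -0.79 ± 0.20 (adjusted p = 0.0371), and the end of Jade2, a gene of a histone acetylation complex, gave -0.78 ± 0.19 (adjusted p = 0.0309). Its call was lost without 0 min library 1 or 3 or 30 min library 1, 2 or 3 (adjusted p = 0.0587 to 0.184), and also with factors from coding ends. At 30 min Gm31342 gave -1.25 ± 0.30 (adjusted p = 0.0277), lost without 0 min library 1 or 2 or 30 min library 1, 2 or 3 (adjusted p = 0.0556 to 0.170), and also with DESeq2's Wald test. Gm33531, inside Rapgef3, gave -1.20 ± 0.28 (adjusted p = 0.0265), lost without 0 min library 1 or 30 min library 1, 2 or 3 (adjusted p = 0.0664 to 0.160). Gm46601, 1.51 kb from an end of the transcription factor gene Foxp4, gave -1.03 ± 0.27 (adjusted p = 0.0461), lost without 0 min library 1 or 3, 15 min library 1 or 30 min library 1, 2 or 3 (adjusted p = 0.0584 to 0.181), and also with factors from coding ends, with no filter or with DESeq2's Wald test.

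Gm32534, Gm40260 and Gm38528 were higher at 15 min than at both other times. Between 30 and 15 min 4 members were higher and 7 lower, 0.479% of those tested against 0.704% of all tested regions (0.214% higher and 0.49% lower among all). The median log2 change was 0.02. Leaving out 15 min library 1 gave 1 higher and 5 lower, 15 min library 3 gave 8 and 8, and 30 min library 1 gave 0 and 6. Without 30 min library 2 there were 2 and 4, and without 30 min library 3 there were 2 and 6. All tested regions moved too, from 116 higher and 266 lower to 31 and 162 without 15 min library 1, and to 247 and 301 without 15 min library 3. DESeq2's Wald test called 11 higher and 8 lower of the 1057 members it kept, and 218 and 249 of the 25435 regions of all kinds. All 7 lower regions met the naming rule. Gm32534 (chr6:82714331-82714930), 10.4 kb from the hexokinase gene Hk2, had 12.2, 16.3 and 19.1 CPM at 0 min, 38.2, 36.0 and 25.7 CPM at 15 min, and 13.1, 10.8 and 12.6 CPM at 30 min. Its 15 min libraries were above those of the other times, which overlapped each other, with log2 changes of 1.09 ± 0.19 (adjusted p = 0.000757) at 15 against 0 min and -1.46 ± 0.20 (adjusted p = 0.00014) at 30 against 15 min. These comparisons share the 15 min libraries, and both calls held without any 1 library. The end of Hk2 was lower at 15 min, with a log2 change of -0.57 ± 0.14 (adjusted p = 0.0129). Gm40260, inside Akap9 (chr5:4072165-4072764), had 7.26, 8.73 and 13.6 CPM at 0 min, 22.5, 29.0 and 25.3 CPM at 15 min, and 12.4, 8.57 and 8.77 CPM at 30 min, again high at 15 min alone (1.40 ± 0.22, adjusted p = 0.000263 and -1.36 ± 0.22, adjusted p = 0.00117). Gm38528 (chr2:70704616-70705215, 7.49 kb from the kinase gene Tlk1) had more reads and was also highest at 15 min, with 33.7, 38 and 37.2 CPM at 0 min, 81.7, 94.9 and 82.8 CPM at 15 min, and 55.2, 41.9 and 55.5 CPM at 30 min. Its log2 change was 1.25 ± 0.14 (adjusted p = 1.46e-06) at 15 against 0 min, and at 30 against 15 min -0.77 ± 0.13 (adjusted p = 0.00205), lost without 30 min library 2 (adjusted p = 0.0640). The window given for Gm40260 is at its far end, and a region of 60.7 CPM at its start was called higher at 15 min too (0.87). Gm30681 lies inside Zfp993 and Gm38998 5.96 kb from Zfp975, 2 zinc finger genes of clusters with similar copies, among which reads could be split, so their values are uncertain. Their log2 changes at 30 against 15 min were -1.04 ± 0.17 (adjusted p = 0.0014) and -0.67 ± 0.14 (adjusted p = 0.013), the second lost without 15 min library 2 or 30 min library 2 or 3 (adjusted p = 0.0567 to 0.165). Gm10865 gave -1.19 ± 0.22 (adjusted p = 0.00394), lost without 15 min library 1 (adjusted p = 0.0646), and Gm39605 -0.89 ± 0.19 (adjusted p = 0.0192), lost without 15 min library 1 or 2 or 30 min library 1 or 2 (adjusted p = 0.0677 to 0.212).

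The 4 higher ones were Gm10822, Gm52864, Gm12059 and Abhd11os. Gm12059 (chr11:23063797-23064396) had 50.1, 46.8 and 50.1 CPM at 0 min, 32.5, 33.0 and 38.4 CPM at 15 min, and 58.7, 54.8 and 53.1 CPM at 30 min, with 15 min below both other times (-0.51 ± 0.13, adjusted p = 0.0177 at 15 against 0 min and 0.69 ± 0.13, adjusted p = 0.00676 at 30 against 15 min). The first of these calls was lost without 0 min library 1 or 15 min library 1 or 2 (adjusted p = 0.0564 to 0.0954), and also with factors from coding ends. The second was lost without 15 min library 1 or 30 min library 1 (adjusted p = 0.0631 to 0.0690). Abhd11os, a transcript opposite to Abhd11 (chr5:135013429-135014028), had 36.1, 30.4 and 35.4 CPM at 0 min, 22, 18.9 and 17 CPM at 15 min, and 31.7, 29.6 and 30.6 CPM at 30 min and gave -0.81 ± 0.16 (adjusted p = 0.00194) and 0.66 ± 0.16 (adjusted p = 0.047). The first call held without any 1 library and the second was lost without 0 min library 3, 15 min library 1, 2 or 3 or 30 min library 1, 2 or 3 (adjusted p = 0.0619 to 0.205), and also with factors from coding ends or in a fit of only these 2 groups. The end region of Abhd11, whose nearer end lay 1.55 kb away, was lower at 15 min too (-0.51 ± 0.13, adjusted p = 0.012). Gm10822 gave 1.12 ± 0.26 (adjusted p = 0.0384), lost without 15 min library 1 or 3 or 30 min library 1, 2 or 3 (adjusted p = 0.0589 to 0.267), and also with factors from coding ends.

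**Figure D3:**
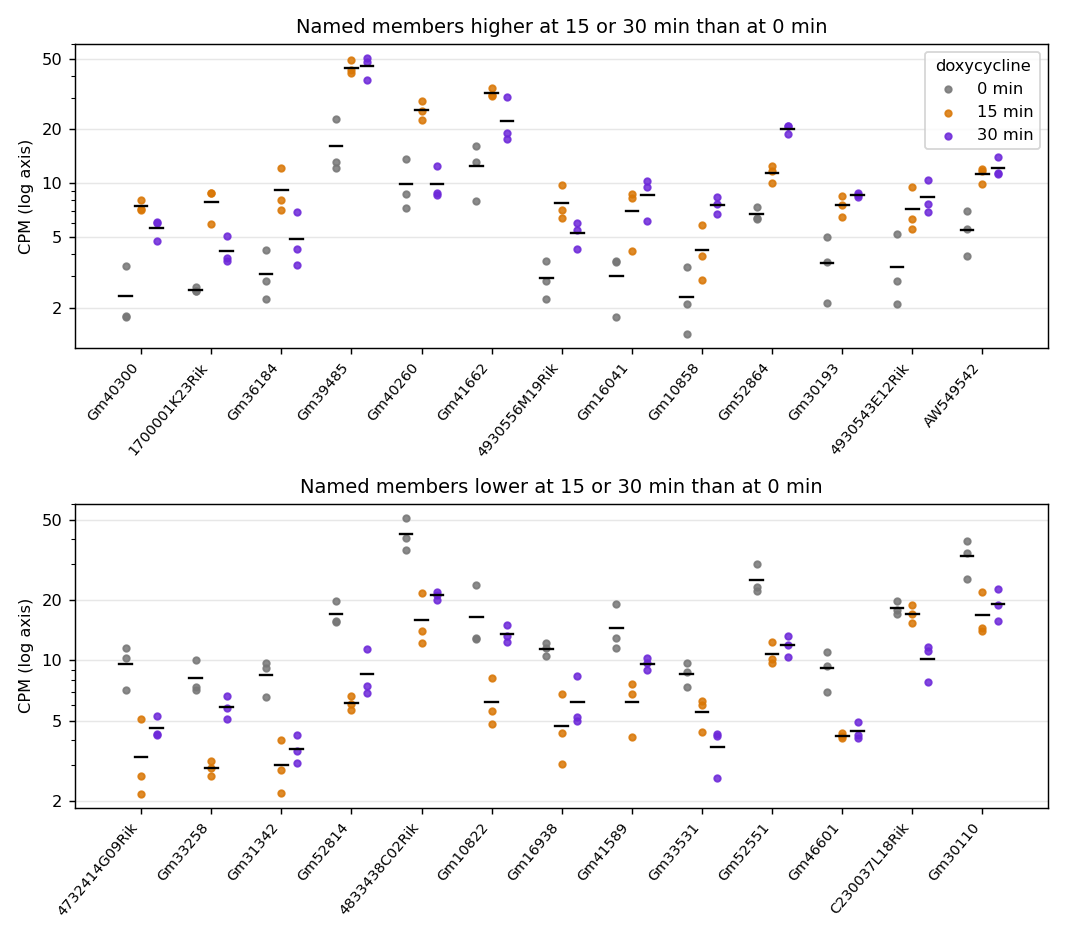
CPM of each library (points, log axis) and mean of 3 (black bars) at 0 min (grey), 15 min (orange) and 30 min (purple) for the named regions higher (top) and lower (bottom) at 15 or 30 min than at 0 min. Gm39485 stands at 41.3 to 49.0 CPM at 15 min, against 12.2 to 22.8 CPM at 0 min, and 4833438C02Rik at 12.2 to 21.6 CPM, against 35.4 to 51.4 CPM.

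Of the 22 snoRNA host genes listed, 12 had a tested region, 1 each. At 15 min, when 4.29% of all tested regions were higher and 3.96% lower, 2 of these 12 were higher, none lower. DESeq2's Wald test called none of the 12 at 15 min. At 30 min none was called by edgeR or by DESeq2, and 1 had an unadjusted edgeR p under 0.05. Their median log2 change was 0.20 at 15 min, against 0.02 for all tested regions, and 0.10 at 30 min. The called genes were Snhg3, given above, and Snhg7 (chr2:26639956-26640555), named because it is the other call of the list. Snhg7 had 147, 147 and 160.5 CPM at 0 min, 181, 182 and 217 CPM at 15 min, and 164, 183 and 191 CPM at 30 min, and all 15 min libraries lay above those of 0 min (0.36 ± 0.11, adjusted p = 0.0362). That call was lost with no filter, with DESeq2's Wald test, in a fit of only these 2 groups, and on leaving out any of the 9 libraries (adjusted p = 0.0542 to 0.134). Snhg5 and Snhg17, chosen after their values were seen, had changes of like size that missed the threshold, 0.38 ± 0.12 (adjusted p = 0.0558) and 0.40 ± 0.14 (adjusted p = 0.0679). For Snhg20, Snhg10 and Snhg11 the values were below 0, -0.25 ± 0.11 (adjusted p = 0.155), -0.47 ± 0.19 (adjusted p = 0.131) and -0.15 ± 0.28 (adjusted p = 0.794). With factors from coding ends 6 of the 12 were higher at 15 min, none lower, against 4154 higher and 937 lower of all 54299 tested regions. The list's median was then 0.36 where that of all regions was 0.19. It stayed above 0 under each scaling tried.

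The list of stem cell lncRNA genes held 37 names, of which 22 were in the annotation and 15 had a member region (19 regions, 15 tested, of 13 genes). At 15 min 4 of the 15 tested regions were higher and 1 lower, at a median log2 change of 0.37, against 4.29% higher, 3.96% lower and a median of 0.02 for all tested regions. At 30 min 2 were higher and none lower, at a median of 0.39, against 1.24%, 0.497% and -0.00 for all. The medians were above 0 under each scaling tried, and with factors from coding ends 5 were higher and 1 lower at 15 min (median 0.55, against 0.19 for all regions) and 6 higher at 30 min (0.51, against 0.12). All 54299 tested regions then gave 4154 higher and 937 lower at 15 min, and 1139 and 119 at 30 min. Platr22 (chr1:136695593-136696192), of the series of pluripotency-associated transcripts, was the clearest, with 32.6, 46.8 and 42.5 CPM at 0 min, 71.7, 74.9 and 64.6 CPM at 15 min, and 89.3, 75.5 and 91 CPM at 30 min. No library of 15 or 30 min reached down to the 0 min range. The log2 change was 0.80 ± 0.14 (adjusted p = 0.000632) at 15 min and 1.08 ± 0.14 (adjusted p = 7.36e-05) at 30 min, which share the 0 min libraries, and both calls held without any 1 library. The end region of Zfp281, whose nearer end lay 65.5 kb away, gave -0.46 ± 0.19 (adjusted p = 0.137) at 15 min. Platr9 (chr4:34911095-34911694) had 33.7, 50.1 and 51.4 CPM at 0 min, 66.7, 84.5 and 57.3 CPM at 15 min, and 61.4, 67.8 and 69.2 CPM at 30 min, with 0.64 ± 0.16 (adjusted p = 0.0113) at 15 min, lost without 0 min library 1 or 15 min library 2 (adjusted p = 0.114 to 0.117), and 0.56 ± 0.16 (adjusted p = 0.0628) at 30 min. Platr10, Lncenc1 and Tunar were outside the naming rule and were chosen after their values were seen, as the list's other calls. Platr10 (chr3:75655440-75656039) had 65.0, 59.3 and 51.5 CPM at 15 min, against 43.2, 38.5 and 33.0 CPM at 0 min, a change of 0.61 ± 0.14 (adjusted p = 0.0087) that was lost without 0 min library 3 or 15 min library 1 (adjusted p = 0.0682 to 0.0692). Lncenc1, a transcript abundant in naive embryonic stem cells (chr13:97435545-97436144), had 28.2, 41.4 and 28.8 CPM at 0 min, 51.5, 54.5 and 47.8 CPM at 15 min, and 49.7, 48.5 and 51.2 CPM at 30 min. Its 15 and 30 min libraries were all above those of 0 min (0.65 ± 0.15, adjusted p = 0.00688 and 0.60 ± 0.15, adjusted p = 0.0338), the first call being lost without 0 min library 1 or 3 (adjusted p = 0.0545 to 0.0694) and the second without 0 min library 1 or 3 or 30 min library 1, 2 or 3 (adjusted p = 0.101 to 0.231). Tunar, a conserved RNA with roles in pluripotency and neural differentiation, went the other way (chr12:105336756-105337355), with 42.0, 31.3 and 34.3 CPM at 0 min, 22.5, 22.3 and 23.1 CPM at 15 min, and 23.9, 25.5 and 24.7 CPM at 30 min and no overlap with 0 min. It gave -0.67 ± 0.16 (adjusted p = 0.00781) at 15 min, lost without 0 min library 1 (adjusted p = 0.0696), and -0.55 ± 0.16 (adjusted p = 0.0696) at 30 min. The most abundant of the list beside Platr30 was Platr14, at 155 CPM, with 0.08 ± 0.10 (adjusted p = 0.674) at 15 min. Platr4 and Platr7, also named after the fact to show listed regions with little change, gave -0.10 ± 0.14 (adjusted p = 0.741) and -0.02 ± 0.19 (adjusted p = 0.966).

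**Figure D4:**
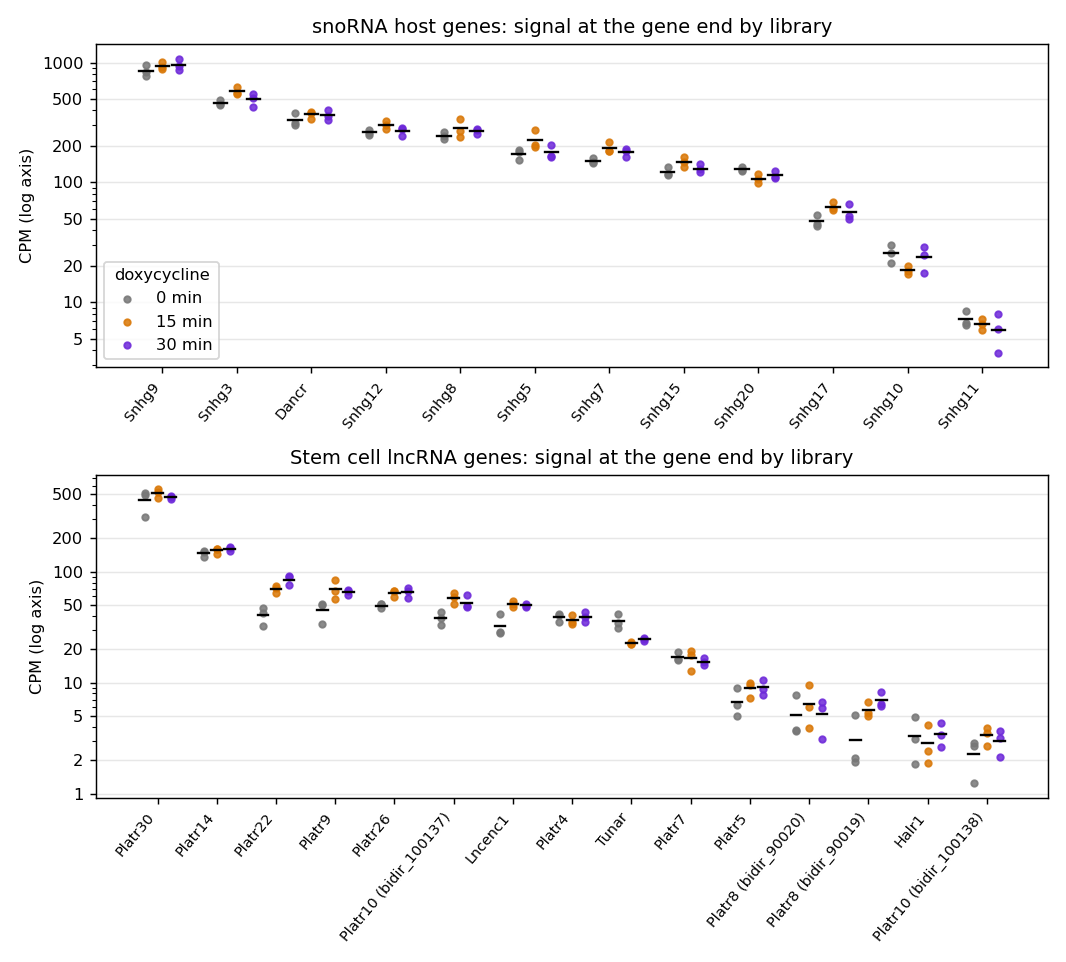
CPM of each library (points, log axis) and mean of 3 (black bars) at 0 min (grey), 15 min (orange) and 30 min (purple) for the tested regions of snoRNA host genes (top) and stem cell lncRNA genes (bottom). Genes with more than 1 tested region carry the region's number. Platr22 stands at 64.6 to 74.9 CPM at 15 min, against 32.6 to 46.8 CPM at 0 min, and Tunar at 22.3 to 23.1 CPM, against 31.3 to 42.0 CPM.

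Of 13 regions at nuclear and widely expressed lncRNA genes, 11 were tested. None was higher and 2 were lower at 15 min, and 1 was higher and none lower at 30 min, with a median of -0.15 at both times. Among all tested regions 4.29% were higher and 3.96% lower at 15 min, and 1.24% and 0.497% at 30 min. With factors from coding ends 2 of the list were higher and 1 lower at 15 min, against 4154 and 937 of all 54299 tested regions. The list's median was then 0.02, so its direction depended on the scaling. Neat1, given above, was the region called at 30 min. Lockd, downstream of the cell cycle inhibitor gene Cdkn1b and known for a promoter that acts as an enhancer of it, had 107, 86.4 and 80.8 CPM at 0 min, 61.2, 57.6 and 70.2 CPM at 15 min, and 67.6, 82.7 and 64.2 CPM at 30 min (chr6:134928515-134929114). The 15 min libraries were all below those of 0 min (-0.54 ± 0.13, adjusted p = 0.0118), and the call was lost without 0 min library 1 or 15 min library 1 or 2 (adjusted p = 0.0552 to 0.0893), and also with factors from coding ends. The end region of Cdkn1b, whose nearer end lay 3.29 kb away, was lower at 15 min (-0.48 ± 0.13, adjusted p = 0.0176). Dleu2, the host of microRNAs of a conserved cluster, was named after its values were seen, as the other lower call. It had 82.5, 66.7 and 80.2 CPM at 0 min, 45.8, 38.9 and 58.5 CPM at 15 min, and 57.6, 66.9 and 64.5 CPM at 30 min (chr14:61681259-61681858), with -0.69 ± 0.14 (adjusted p = 0.00309) at 15 min, a call that held without any 1 library. Malat1, an abundant RNA of nuclear speckles, had 125, 166 and 129 CPM at 0 min, 208, 193 and 129 CPM at 15 min, and 159, 145 and 196 CPM at 30 min, with 1 library of 15 min inside the range of 0 min (0.34 ± 0.15, adjusted p = 0.15). Norad, which binds Pumilio proteins, and Oip5os1 gave -0.10 ± 0.13 (adjusted p = 0.707) and -0.05 ± 0.14 (adjusted p = 0.877).

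Imprinted lncRNA genes had 10 regions, 4 of them tested. At 15 min, when 3.96% of all tested regions were lower, 1 of these 4 was lower. None was called at 30 min by edgeR or by DESeq2, and none had an unadjusted edgeR p under 0.05. Peg13, a paternally expressed RNA inside Trappc9, had 16.3, 15.4 and 12.6 CPM at 0 min, 7.17, 9.34 and 10.2 CPM at 15 min, and 13.3, 15.8 and 14.5 CPM at 30 min at its higher region (chr15:72809783-72810382). That region was lower at 15 min alone (-0.75 ± 0.21, adjusted p = 0.0276), lost without 0 min library 1 or 2 or 15 min library 1 or 2 (adjusted p = 0.0567 to 0.162), and also with factors from coding ends, and the second Peg13 region gave 0.06 ± 0.37 (adjusted p = 0.95). Kcnq1ot1, the antisense RNA of the Kcnq1 imprinted domain, had 64.3, 86.2 and 65.8 CPM at 0 min, 65.8, 67.3 and 54.7 CPM at 15 min, and 63.8, 63.4 and 62.3 CPM at 30 min. Its 15 min libraries overlapped those of 0 min (-0.20 ± 0.13, adjusted p = 0.384), and its 30 min libraries lay just below them (-0.19 ± 0.13, adjusted p = 0.533). The region at Meg3, nearest to Gm34081, gave 0.45 ± 0.22 (adjusted p = 0.226). The list's median of -0.07 at 15 min turned to 0.10 with factors from coding ends. The X-inactivation centre had 3 member regions, of Jpx and Ftx, at 0.188 to 0.524 CPM, all below the filter and so without a test. Of 17 regions at developmental lncRNA genes 4 were tested and none was called by edgeR or by DESeq2 at 15 or 30 min, with 1 at an unadjusted edgeR p under 0.05 at each of these times. Crnde was the highest at 12.1 CPM and gave -0.49 ± 0.25 (adjusted p = 0.238), while the end of its neighbour Irx5 was lower, with a log2 change of -1.10 ± 0.24 (adjusted p = 0.00426).

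Among genes that host microRNAs by name, 6 of 8 regions were tested. At 15 min, when 3.96% of all tested regions were lower, 1 of these 6 was lower. This was Mirc35hg, the host of a microRNA cluster (chr6:30173905-30174504), with 146, 144 and 134 CPM at 0 min, 86.8, 81.2 and 96.7 CPM at 15 min, and 114, 134 and 105 CPM at 30 min. Its 15 min libraries were the lowest, with no overlap with 0 min (-0.68 ± 0.12, adjusted p = 0.000498), the call held without any 1 library, and at 30 min the test did not pass (-0.26 ± 0.11, adjusted p = 0.258). The end region of Nrf1, whose nearer end lay 20.7 kb away, gave -0.02 ± 0.14 (adjusted p = 0.961). Mir22hg, the host of Mir22, was the highest of this list with 166, 174 and 152 CPM at 0 min, 191, 172 and 174 CPM at 15 min, and 200.4, 203 and 183 CPM at 30 min (0.25 ± 0.10, adjusted p = 0.214 at 30 min). Mir205hg and Mir155hg gave -0.12 ± 0.25 (adjusted p = 0.821) and -0.00 ± 0.24 (adjusted p = 0.998) at 15 min. Genes named as opposite-strand transcripts of coding genes had 103 regions and 49 tested, with 1 higher and 2 lower at 15 min. That is 2.04% and 4.08%, against 4.29% and 3.96% of all tested regions. None of the 49 was called by edgeR or by DESeq2 at 30 min (10 at an unadjusted edgeR p under 0.05), when edgeR called 1.74% of all. Their highest members, Rab11fip4os1, Oip5os1, Zfp652os and Stk35os1, gave log2 changes at 15 min of 0.11 ± 0.12, -0.05 ± 0.14, -0.20 ± 0.15 and 0.19 ± 0.16, none called. Numbered gene models made up 6303 of the 6593 regions and 2147 of those tested, with 95 higher and 107 lower at 15 min and 30 and 12 at 30 min. That is 4.42% higher and 4.98% lower at 15 min, against 4.29% and 3.96% of all tested regions. With factors from coding ends there were 148 higher and 50 lower at 15 min and 44 and 5 at 30 min. All 54299 tested regions then gave 4154 and 937 at 15 min and 1139 and 119 at 30 min. The called region of highest level with a Gm name was Gm46638, at 229, 223 and 223 CPM at 15 min, against 289, 265 and 298 CPM at 0 min (-0.34 ± 0.09, adjusted p = 0.023), lost without 0 min library 1 or 3 or 15 min library 1 or 2 (adjusted p = 0.0541 to 0.0693), and also with factors from coding ends.

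By the kind of gene end, 52 regions at starts were higher at 15 min and 55 lower of 1184 tested (median -0.09), and 25 higher and 33 lower of 583 at far ends (median -0.02). That is 4.39% higher and 4.65% lower at starts and 4.29% and 5.66% at far ends, against 4.29% and 3.96% of all tested regions. With factors from coding ends there were 84 higher and 24 lower at starts (median 0.08) and 43 and 16 at far ends (0.14). All 54299 tested regions then gave 4154 and 937. In 140 genes both ends were tested, and the start had the higher level in 88, with medians of 8.40 CPM at starts and 5.41 CPM at far ends. In the 4 bands of distance from coding ends given next, 10.3%, 3.80%, 3.31% and 4.17% were lower, nearest first, against 3.96% of all tested regions. Higher were 5.06%, 5.50%, 3.07% and 5.21%, against 4.29%. From 1 to 5 kb away, 25 members were higher and 51 lower of 494 (median -0.17), from 5 to 20 kb 42 and 29 of 763 (-0.05), from 20 to 100 kb 26 and 28 of 847 (-0.03) and beyond 100 kb 10 and 8 of 192 (0.01). With factors from coding ends the counts were 37 and 27, 62 and 14, 51 and 10, and 14 and 3 in the same order of distance. The medians were -0.00, 0.11, 0.13 and 0.18, so their order stayed. From 1 to 5 kb, lower calls then no longer outnumbered higher ones. At 27 of 494, lower calls were still more frequent there than in the other bands and than the 937 of all 54299 tested regions. Members inside a coding gene gave 25 higher and 52 lower of 684 (3.65% and 7.60%, median -0.15). Those outside gave 78 and 64 of 1612 (4.84% and 3.97%, median -0.04). With factors from coding ends there were 32 and 26 inside (0.02) and 132 and 28 outside (0.13). The differences between these groups were not tested. Members were also set beside the end region of their nearest coding gene, in 1007 pairs of tested regions. Only the member of highest level was kept for each coding gene. Of 54 such members lower at 15 min, 12 had a neighbour that was lower and none a neighbour that was higher. Of 61 higher ones, 2 had a higher and 4 a lower neighbour. Among all tested regions at coding ends alone, 8.50% were lower and 1.38% higher. Across pairs with a coding end within 5 kb (253), the log2 changes of member and neighbour had a Pearson correlation of 0.28, and over 20 kb away (398) of 0.06. Both values come from the same libraries and share their depth and base composition, so this is a description.

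A RefSeq promoter overlapped the counting window of 1712 members, 744 of them tested. The members called higher at 15 min (32 with a promoter) had a median GC content of 49.2%, those called lower (30) of 60.2%, and those tested and not called (682) of 54.0%. GGGCGG, the core of the GC box, stood on either strand in 18.8% of the higher, 66.7% of the lower and 35.9% of the uncalled ones, against 35.7% of all promoters in the table. TATAAA stood in 21.9%, 3.33% and 9.68% of them, against 13.6% of all. CCAAT was in 34.4%, 43.3% and 36.2% (37.4% of all) and CACGTG in 15.6%, 10.0% and 9.82% (7.15% of all). The letters are a description and say nothing of binding. In 4 bands of the tested promoters by GC content, 16 were higher and 3 lower at 15 min in the lowest (33.3% to 49.0% GC, n = 184, median 0.12), 6 and 3 in the second (n = 183, -0.04), 8 and 9 in the third (n = 185, -0.13) and 2 and 15 in the highest (61.3% to 88.0% GC, n = 192, -0.18). Of all tested regions 4.29% were higher and 3.96% lower at 15 min. The same bands under factors from coding ends gave 28 higher and 1 lower, 12 and 0, 10 and 4, and 6 and 11, the lowest first, and the medians were 0.29, 0.13, 0.03 and -0.01, in the same order. All 54299 tested regions gave 4154 higher and 937 lower under those factors. Regions at coding ends in the same 4 bands of GC content had medians of 0.04, -0.03, -0.12 and -0.22, with 16 higher and 7 lower of 362 in the lowest band and 18 and 322 of 3341 in the highest. The order by GC content was seen at lncRNA and at coding ends. Single libraries differed in this measure within a group. The median deviation of the lowest band minus that of the highest, on the log2 scale, was -0.41, -0.05 and -0.16 in the 3 libraries of 0 min, 0.19, 0.27 and -0.12 in those of 15 min, and 0.11, 0.04 and 0.03 in those of 30 min. Library 3 of 15 min lay within the range of 0 min. The part of this library property in the calls was not tested.

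**Figure D5:**
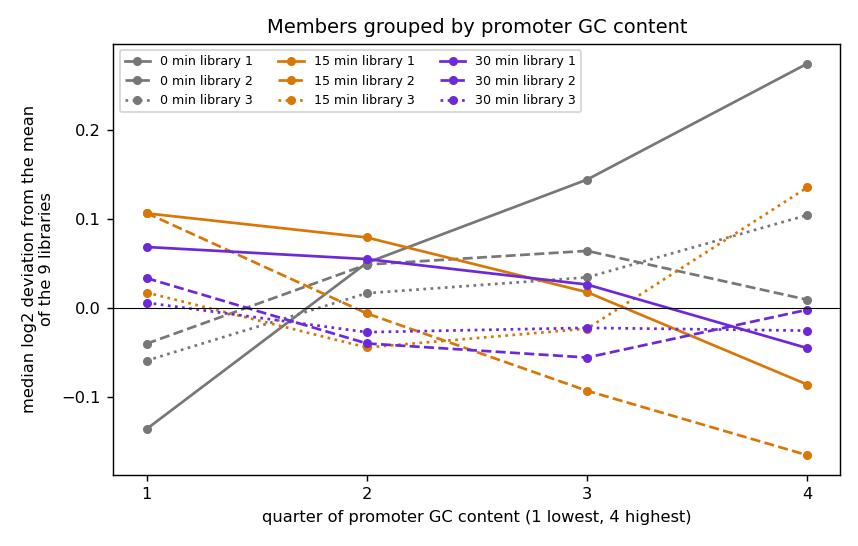
Median log2 deviation of each library from the mean of the 9 (vertical) in 4 bands of promoter GC content (horizontal, 1 lowest and 4 highest) over the 744 tested regions with a RefSeq promoter, with a line for each library, colour for the time and line style for the library number. Library 1 of 0 min rises most with GC content and libraries 1 and 2 of 15 min fall, while library 3 of 15 min rises in the highest band.

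At the 1 kb limit, the members just inside were 1700001K23Rik (997 bp), 2410004I01Rik (997 bp) and Gm11520 (996 bp), at 4.84, 2.45 and 166 CPM. Just outside were the regions at Gm46579 (1001 bp), Gm38855 (1002 bp) and Gm36208 (1002 bp), at 8.18, 9.54 and 22.3 CPM. Their log2 changes at 15 min were 1.63, -0.17 and 0.54 inside, against -0.36, 0.63 and -0.17 outside.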

How the data were processed

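Read counts per region were deposited by the authors for 9 PRO-seq libraries, and the deposited lists of regions hold other values, namely mm10 coordinates. HISAT2, featureCounts and DESeq2 1.26.0 are named in the submitters' processing notes without settings, and the strand counted is not given in the sources used here. The names of the deposited lists give Tfit and muMerge for the regions. Counts of the Drosophila nuclei that the labels mention were not used here, so changes are relative to other mouse regions.

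Libraries were grouped by the time in their titles. Counts of all 174289 regions were tested in R 4.3.3 with edgeR 4.0.16 (quasi-likelihood test, limma 3.58.1): filterByExpr on the groups, TMM factors of 0.971 to 1.02, all 9 libraries in 1 fit with time as a factor, and Benjamini-Hochberg over 54299 regions, called at 0.05. An SE is the log2 change divided by the square root of F. The test was also run on simulated counts, and the outcome is not given here. Tables were made in Python 3.11.15. Pairs of libraries of a group differed by more than counting noise (chi-square per degree of freedom 2.16 to 3.50), so no library was counted as a copy.

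Members and gene lists were chosen with earlier results of these data known. Named were the 10 members of highest mean CPM, per contrast up to 8 higher and 8 lower called members of largest change with a mean of at least 20 counts and groups without overlap, up to 4 tested members of highest level per list, and the members nearest to the 1 kb limit. Promoter sequences are those of RefSeq, GRCm38.p6, 300 bases each, matched by gene where they overlap the window. Strand was known for genes with a promoter entry. As alternatives, scaling used library size alone, DESeq2 size factors or factors from coding ends, the filter was dropped or set to 20 counts in 3 libraries, and fits held a block for the replicate number or just 2 groups. Others were DESeq2 1.42.0's Wald test, windows without overlap, a 500 bp limit, gene starts only, and each library left out in turn.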

Additional observations from a re-analysis of the deposited data

How the results depend on the processing

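Counts of called members are given as higher and lower. At 15 against 0 min (103 and 116), they were 64 and 90 with a 500 bp limit and 53 and 63 at gene starts only. They were 164 and 54 with factors from coding ends (4154 and 937 of all tested regions). With DESeq2's Wald test they were 56 and 101 (1305 and 1877 of all). At 30 against 0 min (34 and 12), they were 15 and 6 with the 500 bp limit and 16 and 6 at starts only. They were 52 and 5 with factors from coding ends (1139 and 119 of all). In a fit of only the 2 groups they were 40 and 22 (848 and 456 of all). At 30 against 15 min (4 and 7), they were 0 and 4 with the 500 bp limit and 3 and 3 at starts only. They were 1 and 7 with factors from coding ends (60 and 264 of all). With DESeq2's Wald test they were 11 and 8 (218 and 249 of all). The 500 bp limit and the starts hold fewer regions by construction, and for the other settings the cause was not tested. Whether the replicate numbers pair the libraries could not be decided. The correlation of same-numbered deviations ran from -0.05 to 0.18, and that of differently numbered ones from -0.20 to 0.10. Between 0 and 15 min the same-numbered values were 0.04, 0.18 and 0.10. With the replicate number as a block the counts were 107 and 125, 41 and 15, and 6 and 9.

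With a library left out, the counts at 15 min ranged over 44 to 123 higher and 51 to 165 lower, at 30 min over 3 to 46 and 1 to 27, and between 30 and 15 min over 0 to 8 and 4 to 8. The lowest were without library 1 of 0 min (44 higher) and of 15 min (51 lower) at 15 min, without library 1 of 0 min at 30 min (3 and 1), and without library 1 of 30 min (0 higher) and library 2 of 30 min (4 lower) between the times. All tested regions moved too: without library 1 of 0 min they gave 1075 higher and 1075 lower at 15 min, against 2331 and 2148 with every library. At 30 min they then gave 117 and 54, against 675 and 270. Of 76 calls of named members, 32 held without any 1 library. Over all settings that kept the region, 1246 of 1442 repeats kept the call, 196 lost it and none turned its direction. The 4297 untested members averaged at most 9.56 reads per library, and neither a change nor its absence is claimed for them. How large a change could be seen at that level was not tested. Of the 76 named calls, 11 were lost with DESeq2's Wald test, 10 with factors from coding ends, 9 with no filter and 5 in a fit of only the 2 groups.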
